A study of Mus musculus with 14 samples.

Results

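RGS proteins (regulators of G-protein signalling) were followed as 10 genes of the 23284 listed in each of 2 expression tables, namely Rgs2, Rgs3, Rgs4, Rgs5, Rgs10, Rgs12, Rgs14, Rgs16, Rgs17 and Rgs19. They were selected by symbol, and Rgs16 was chosen for values in these same libraries, a higher level with TGF-β and a lower level after knockdown of Etv4 and Etv5. Those 2 differences of Rgs16 are therefore given as a description, with no test. The tables list 20 numbered Rgs genes in all, and the other 10 are given once, beside the members.

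The libraries came from EpH4 cells, a mouse mammary gland epithelial line, and EpRas cells, their derivative transformed with H-Ras (H-RasG12V in the study's description). EpH4 and EpRas cells were left untreated or treated with TGF-β3 (1 ng/ml, 48 h), with 2 libraries, described as biological replicates, for each of the 4 groups. A second set of EpRas libraries, 1 for each of 6 conditions, came from cells that received a negative control siRNA (siNC) or 1 of 2 siRNA pairs, and were then untreated or treated; each pair targets Etv4 together with Etv5. Etv4 and Etv5 are ETS family transcription factors. EpRas cells were grown in less serum than EpH4 cells, so transformation and serum cannot be told apart in any comparison of the lines. The untransfected and the transfected samples were processed independently, so levels were tested within a table only. Expression is given as FPKM, in which the fragments of a gene are divided by its exon length and by the mapped fragments of the library, which allows levels of different genes to be compared per length.

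A G protein is switched on when an activated receptor makes its α subunit exchange GDP for GTP, and it stays on until that GTP is hydrolysed. RGS proteins share a domain that binds the GTP-bound α subunit and speeds up this hydrolysis, which shortens the signal. The R4 group (Rgs2, Rgs3, Rgs4, Rgs5 and Rgs16) holds mostly small proteins that are little more than this domain, though Rgs3 also has long forms. In the R12 group (Rgs10, Rgs12 and Rgs14), Rgs12 and Rgs14 also carry Ras-binding and GoLoco domains. Rgs17 and Rgs19 belong to the RZ group.

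The relative depth of the libraries, read from the steps between low FPKM, lay between 0.609 and 1.36 in the untransfected table and between 1 and 1.74 in the siRNA table, each relative to the first library of its table. For 8 of the 10 members the FPKM were whole multiples of the value of 1 read, so the reads behind them are given; Rgs3 and Rgs12, which have 2 annotated starts each, gave no such step. As a check of the labels, Etv4 was between 11.6 and 27.9 FPKM with the siRNA pairs against 57.4 and 64.3 FPKM with siNC, and Etv5 between 1.203 and 1.61 FPKM against 8.85 and 5.34 FPKM. Of 8 epithelial markers, 0 were under 1 FPKM everywhere, and their summed level was between 5286 and 6406 FPKM in untreated and 9132 and 9740 FPKM in treated EpH4 cells. In EpRas cells it was between 4131 and 5269 FPKM untreated and 2535 and 4372 FPKM treated, and Krt19 was at 0 in all 4 EpH4 libraries. The epithelial sum thus moved with TGF-β, up in EpH4 cells, beside the RGS differences given below, and its part in them was not tested. Krt7 was its largest part there, at 2550 and 3425 FPKM untreated and 5185 and 4941 FPKM treated. Epcam, Cdh1, Krt8 and Cldn4 were higher with TGF-β too. Cldn7 was lower (191 and 208 FPKM untreated, 155 and 159 FPKM treated), and the Krt18 groups overlapped.

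Across the 8 untransfected libraries, Rgs19 had the highest level of the 10 genes, with a median of 75.2 FPKM (lowest 61.3, highest 103.9). Rgs10 (median 31.7 FPKM, 20.5 to 38.2), Rgs12 (median 22.5 FPKM, 10.0 to 65.0) and Rgs16 (median 16.9 FPKM, 4.58 to 47.0) came next, and their ranges overlapped, so no order among these neighbours holds in all libraries. Rgs3 (median 2.49 FPKM, 2.08 to 5.76), Rgs2 (median 0.859 FPKM, 0.0840 to 3.80) and Rgs14 (median 0.632 FPKM, 0.237 to 1.205) were lower. The range of Rgs2 overlapped those of Rgs3 and Rgs14, and Rgs14 was above Rgs2 in the 4 treated libraries. Rgs17 had a median of 0.0590 FPKM (0 to 0.152). Rgs4 and Rgs5 were listed at 0 in 7 of 8 libraries each, with 1 read in the remaining one. The plot of levels by gene gives the siRNA libraries beside these. There the order differed between libraries, with Rgs16 (0.883 and 1.74 FPKM) under Rgs3 (2.40 and 3.65 FPKM) in untreated cells with either Etv4 and Etv5 siRNA pair.

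**Figure D1:**
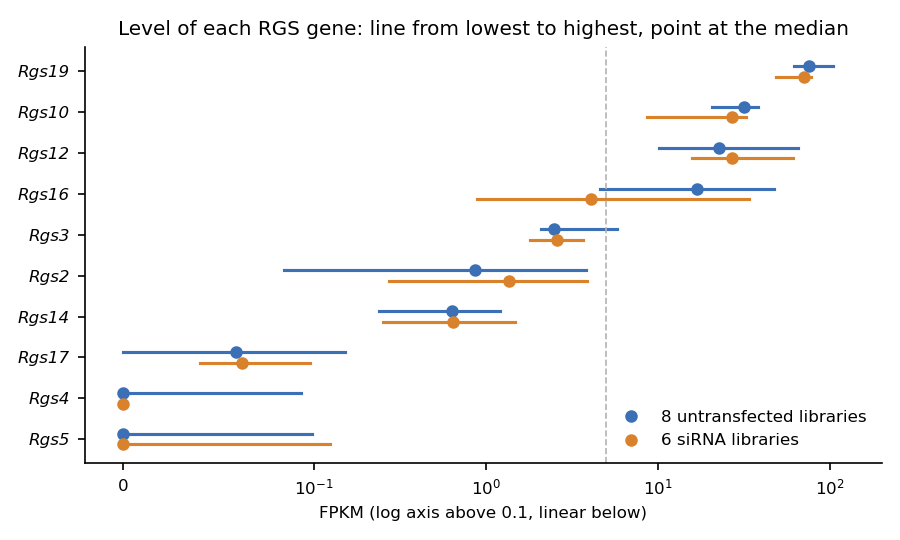
FPKM of the 10 RGS genes (rows) on an axis that is logarithmic above 0.1 FPKM and linear below, in the 8 untransfected libraries (blue) and the 6 siRNA libraries (orange). Lines run from the lowest to the highest library, points mark the median and the dashed line marks 5 FPKM; Rgs19 is at the top with a median of 75.2 FPKM, and Rgs4 and Rgs5 lie at 0 in nearly every library.

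A gene entered the test where its highest library reached 5 FPKM. This left 5 members in the untransfected table (Rgs3, Rgs10, Rgs12, Rgs16 and Rgs19) and 4 in the siRNA table (the same without Rgs3). Rgs3 reached 5 FPKM only in TGF-β-treated EpH4 cells, so the filter itself chose it for a high level there. Rgs3 and the members under 5 FPKM, and the counts of members and listed genes in the untransfected libraries, are therefore given from the same test with no filter on low values, over 15244 genes, which keeps every gene above 0 in 1 library. Rgs16 has no test in any comparison, because all of them use the libraries it was chosen on.

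Promoter sequences are shown for the 3 members whose level differed with TGF-β the same way in 5 of 5 settings (both lines and the 3 transfections), Rgs16, Rgs2 and Rgs12. This agreement is by direction alone, with no minimum size, and serves only to choose the sequences shown. The share of all genes that agree so is not given, here or below, and for Rgs16 the values are those it was chosen on. The sequences are the 250 bases before the annotated start, from RefSeq on GRCm38.p6, the build of the tables, written in the direction of the gene. Capitals mark GGAA (the core recognised by ETS factors), TGACTCA (an AP-1 site) and CAGACA (a Smad box), on either strand. The Rgs16 stretch is chr1:153740103-153740352 on the plus strand, the Rgs2 stretch is chr1:144004150-144004399 on the minus strand, and the Rgs12 stretches, before its first and its second annotated start, are chr5:34949198-34949447 and chr5:34998828-34999077, both on the plus strand.
Rgs16: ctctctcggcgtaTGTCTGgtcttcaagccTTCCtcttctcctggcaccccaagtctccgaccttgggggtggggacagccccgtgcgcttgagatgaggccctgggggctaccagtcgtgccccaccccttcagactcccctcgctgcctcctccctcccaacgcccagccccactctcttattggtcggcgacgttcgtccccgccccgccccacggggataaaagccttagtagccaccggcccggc
Rgs2: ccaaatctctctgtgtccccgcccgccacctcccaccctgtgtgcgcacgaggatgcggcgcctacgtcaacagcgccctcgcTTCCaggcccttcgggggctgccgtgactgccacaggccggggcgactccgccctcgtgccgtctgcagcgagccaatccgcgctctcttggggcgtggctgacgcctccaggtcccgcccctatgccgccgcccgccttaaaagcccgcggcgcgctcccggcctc
Rgs12 first start: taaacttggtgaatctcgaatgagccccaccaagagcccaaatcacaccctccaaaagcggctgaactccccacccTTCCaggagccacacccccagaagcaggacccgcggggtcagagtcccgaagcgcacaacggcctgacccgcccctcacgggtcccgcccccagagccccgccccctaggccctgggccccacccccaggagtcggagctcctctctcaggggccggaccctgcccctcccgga
Rgs12 second start: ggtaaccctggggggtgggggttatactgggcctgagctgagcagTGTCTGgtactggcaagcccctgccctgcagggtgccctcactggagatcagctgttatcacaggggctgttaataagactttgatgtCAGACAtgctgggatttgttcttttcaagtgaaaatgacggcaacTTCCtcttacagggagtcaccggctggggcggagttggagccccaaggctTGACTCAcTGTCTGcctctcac

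Motifs were counted on both strands of windows from 250 bases before to 50 bases after the start, with positions counted from 0 at the first transcribed base. The Rgs16 window held 1 GGAA core, at position -220, against a median of 3 cores over all 32851 promoters of this length, of which 96.0% hold at least 1. It also held 1 CAGACA box, at position -237, a motif present in 21.0% of all promoters. The Rgs2 window held 2 GGAA cores, at positions -167 and 46, and no CAGACA. The window of the second Rgs12 start held 3 CAGACA boxes (positions -205, -117 and -14) and 1 TGACTCA (position -22), beside 2 GGAA cores (-72 and 24), and TGACTCA was present in 5.20% of all promoters. The first Rgs12 window held 1 GGAA core and neither of these. The longer ETS site CCGGAA, which contains GGAA and was present in 14.9% of all promoters, was in none of these 4 windows, and among the 13 windows of the 9 members with a RefSeq promoter it was found only in 1 of the 3 Rgs19 windows. A match describes letters in this window and not binding.

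Rgs16, an R4 protein that acts on Gi and Gq α subunits, lies at chr1:153740353-153745468 (mm10, plus strand). In EpH4 cells its level was 11.7 and 11.4 FPKM without and 22.9 and 22.1 FPKM with TGF-β, on 147, 194, 207 and 297 reads. In EpRas cells it was 4.58 and 4.93 FPKM without and 47.0 and 40.7 FPKM with TGF-β, on 35, 70, 505 and 340 reads. Both treated libraries of each line were above both untreated ones, the lowest values were those of untreated EpRas cells and the highest those of treated EpRas cells. The mean was 1.94-fold higher with TGF-β in EpH4 cells and 9.21-fold higher in EpRas cells, which on log2(FPKM + 1) are differences of 0.90 and 2.96. These are the values Rgs16 was chosen on, and neither they nor their difference of 2.06 on the log2 scale has a test.

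Between the lines Rgs16 was lower in both untreated EpRas libraries than in both untreated EpH4 libraries, 2.43-fold by the mean FPKM and by a log2 difference of -1.13. With TGF-β it was higher in both EpRas libraries, 1.95-fold by the mean FPKM and by a log2 difference of 0.93. The groups did not overlap in either comparison. These values come from the same libraries and are a description as well.

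With no filter on low values, the untreated comparison of the lines called 1 of the 9 members other than Rgs16, namely Rgs2, beside 14.7% of all genes tested. With TGF-β it called 1 of 9, Rgs3, beside 18.1% of all genes. The median log2 difference over the 9 members was 0 without and -0.17 with TGF-β, against 0 over all genes tested in both. The first of these was the value of Rgs4 and Rgs5, which had 0 reads in the untreated libraries, and the second that of Rgs14, a low gene. They therefore do not describe the members that were well expressed. The counts of members called are too small to be set against the shares over all genes.

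**Figure D2:**
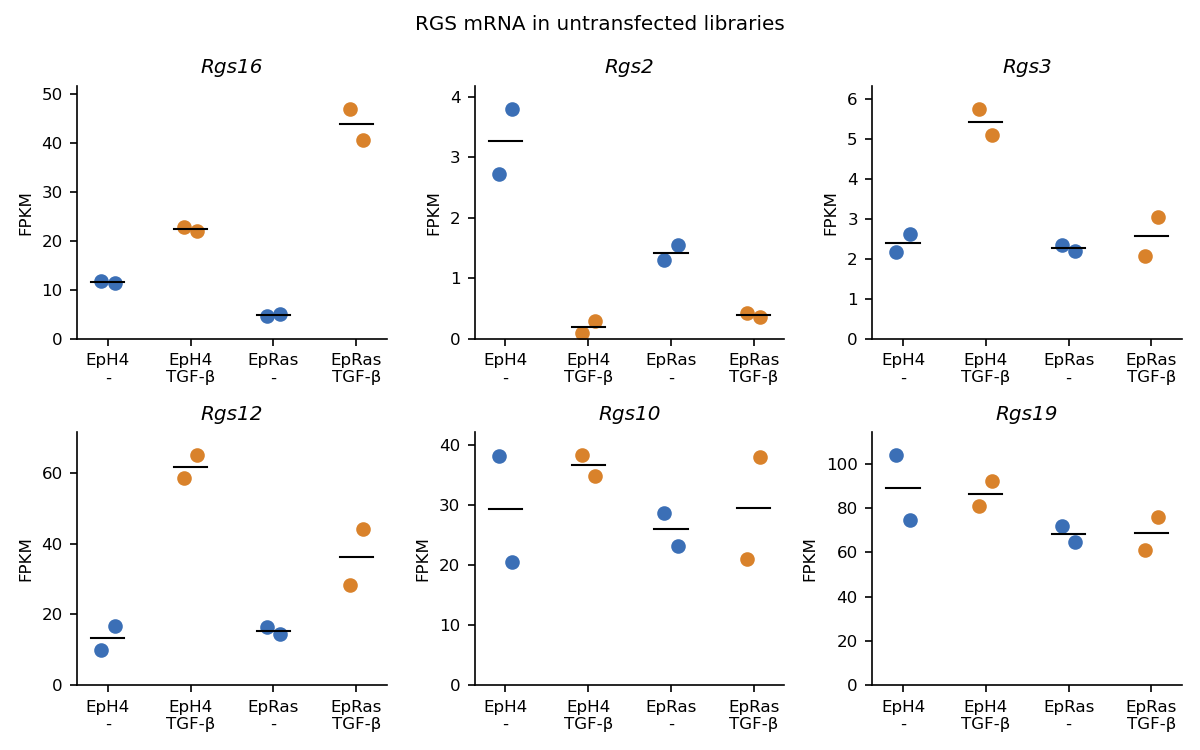
FPKM of 6 RGS genes in the untransfected libraries, by line and treatment (blue without and orange with TGF-β; points are the 2 libraries of a group, bars their mean, each vertical axis from 0). Rgs16 is lowest in untreated EpRas cells (4.58 and 4.93 FPKM) and highest in treated EpRas cells (47.0 and 40.7 FPKM), Rgs2 is lower with TGF-β in both lines, and Rgs12 is higher.

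Rgs2, an R4 protein with a preference for Gq α subunits, went the opposite way to Rgs16 with TGF-β. It lies at chr1:143999338-144004149 (mm10, minus strand). Its level in EpH4 cells was 2.73 and 3.80 FPKM without and 0.0840 and 0.282 FPKM with TGF-β, on 45, 85, 1 and 5 reads. In EpRas cells it was 1.29 and 1.55 FPKM without and 0.424 and 0.364 FPKM with TGF-β, on 13, 29, 6 and 4 reads. All 4 treated libraries were below all 4 untreated ones.

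Because Rgs2 did not reach 5 FPKM in any library, it was tested only with no filter on low values. With TGF-β in EpH4 cells it fell by 1.84 on the log2 scale (SE 0.16, adjusted p = 0.00282, limma), a comparison that called 7.27% of all genes. That call was kept when any 1 of the 8 libraries was left out (adjusted p between 0.0147 and 0.0423) and lost with only the 4 EpH4 libraries in the fit (adjusted p = 0.0622). Its log2 difference in EpRas cells was -0.80 (SE 0.16, adjusted p = 0.0702), where 2.60% of genes were called, and this did not pass the threshold. By pooled reads Rgs2 was 16.5-fold lower with TGF-β in EpH4 cells (6 against 130 reads, 95% exact interval 7.38 to 45.8) and 3.68-fold lower in EpRas cells (10 against 42 reads, 1.81 to 8.22). These exact binomial (Clopper-Pearson) intervals, here and below, cover counting error only.

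Untreated EpRas cells had less Rgs2 than untreated EpH4 cells, with a log2 difference of -0.81 (SE 0.16, adjusted p = 0.0240, limma with no filter), beside 14.7% of genes called. This call was lost without either untreated EpRas library, either treated EpH4 library or the second untreated EpH4 library (adjusted p up to 0.132), and with only the untreated libraries in the fit (adjusted p = 0.110). With TGF-β the difference was 0.24 (adjusted p = 0.367) on 10 against 6 reads, beside 18.1% of genes called. The difference between the lines in the effect of TGF-β on Rgs2 was 1.05 (SE 0.22, adjusted p = 0.152, limma with no filter), beside 0.768% of genes called, and did not pass.

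Rgs3, the remaining R4 member that was expressed, differs from Rgs2 and Rgs16 in having long as well as short forms. Its FPKM in EpH4 cells were 2.17 and 2.63 without and 5.76 and 5.11 with TGF-β, and in EpRas cells 2.35 and 2.2003 without and 2.08 and 3.05 with TGF-β. The treated EpH4 cells stood above the rest. With no filter, Rgs3 rose with TGF-β in EpH4 cells by 0.92 on the log2 scale (SE 0.16, adjusted p = 0.0258, limma), and 2.27-fold by the mean FPKM. In EpRas cells the difference was 0.11 (SE 0.16, adjusted p = 0.864). With TGF-β its level was lower in EpRas than in EpH4 cells by a log2 difference of -0.86 (SE 0.16, adjusted p = 0.0162), whereas untreated cells differed by -0.05 (adjusted p = 0.912). The call in EpH4 cells was lost without any 1 of the 4 EpH4 libraries or of the 2 untreated EpRas libraries (adjusted p up to 0.171), and with only the EpH4 libraries in the fit (adjusted p = 0.0710). The call between the treated lines was lost without either treated EpH4 library (adjusted p up to 0.115) and with only the treated libraries (adjusted p = 0.112). The difference between the lines in the effect of TGF-β was -0.81 (SE 0.22, adjusted p = 0.234) and did not pass.

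Rgs12, the largest of the R12 proteins, reached 5 FPKM in every library, so that its test does not rest on the filter. Its level in EpH4 cells was 10.0 and 16.8 FPKM without and 58.7 and 65.0 FPKM with TGF-β. In EpRas cells it was 16.4 and 14.3 FPKM without and 28.2 and 44.1 FPKM with TGF-β. The treated libraries lay above the untreated ones in both lines. Rgs12 rose in EpH4 cells by 2.16 on the log2 scale (SE 0.28, adjusted p = 0.00427, limma over the 9100 genes that reached 5 FPKM, of which 9.40% were called), 4.60-fold by the mean FPKM. With no filter the adjusted p was 0.0131, and it was then lost without the first untreated or either treated EpH4 library, or without either untreated EpRas library (adjusted p up to 0.119), and with only the EpH4 libraries in the fit (adjusted p = 0.0805). In EpRas cells the difference was 1.15 (SE 0.28, adjusted p = 0.0858), 2.35-fold by the mean FPKM, and did not pass. Neither the difference between these effects (-1.01, SE 0.40, adjusted p = 0.418) nor that between the lines with TGF-β (-0.79, SE 0.28, adjusted p = 0.0912) passed. The difference between the treated lines was -0.476 without the first treated EpRas library and -1.10 without the second, and it passed in the second of these fits.

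With no filter, TGF-β in EpH4 cells thus called 3 of the 9 members other than Rgs16, with Rgs2 lower and Rgs3 and Rgs12 higher, where 7.27% of all genes were called. In EpRas cells limma called 0 of 9, where 2.60% of all genes were called. At an unadjusted p under 0.05, a looser threshold than that of this share, there were 2 members, Rgs2 and Rgs12. The difference between the lines in the effect of TGF-β called 0 of 9, where 0.768% of all genes were called. At the same looser threshold there were 3 members, Rgs2, Rgs3 and Rgs14. Over all 15244 genes, 2272 reached this looser threshold for TGF-β in EpRas cells and 1791 for the difference between the lines. The unadjusted counts of members are to be read beside these and not beside the shares of calls. They are too small to show an excess. The median log2 difference over the 9 members was 0.07 in EpH4 and 0 in EpRas cells, against 0 over all genes in both. Both medians were the value of Rgs5, which had 1 read in 1 treated EpH4 library and 0 in EpRas cells. They therefore do not describe the members that were expressed.

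**Figure D3:**
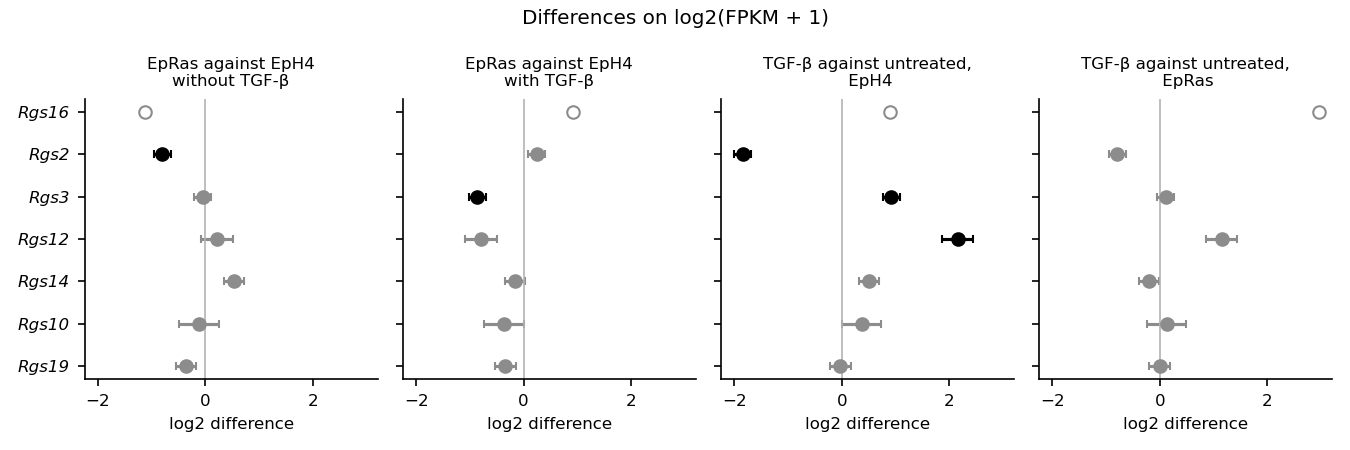
Log2 difference of 7 members, on log2(FPKM + 1), for EpRas over EpH4 cells in untreated and in treated libraries and for TGF-β against untreated in each line, from limma with no filter on low values; bars are standard errors. Black points passed an adjusted p of 0.05 (Rgs2, Rgs3 and Rgs12 with TGF-β in EpH4 cells, Rgs2 and Rgs3 once each between the lines) and grey points did not; open circles are Rgs16 (0.90 and 2.96 with TGF-β), which has no test.

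Rgs10, a small R12 protein best known from microglia, and Rgs19, an RZ protein also called GAIP, were abundant and, with the filter of 5 FPKM, did not pass in any of the 5 comparisons. Of the 9100 genes tested so, 17.6% were called between the untreated and 21.3% between the treated lines, 9.40% for TGF-β in EpH4 and 3.82% for TGF-β in EpRas cells, and 0.802% for the difference between the lines. Rgs10 was at 38.2 and 20.5 FPKM in untreated and 38.2 and 34.8 FPKM in treated EpH4 cells. In EpRas cells the values were 28.6 and 23.2 FPKM untreated and 20.9 and 37.9 FPKM treated. In untreated EpH4 and in treated EpRas cells, the libraries of the group differed by more than any pair of group means. The log2 differences of Rgs10 lay between -0.36 and 0.37 (SE 0.35, or 0.50 for the difference between the lines). Rgs19 lay between 61.3 and 103.9 FPKM, and its log2 difference was -0.36 between the untreated and -0.34 between the treated lines (SE 0.21, adjusted p = 0.277 and 0.290, limma). When a library was left out, these ran from -0.599 to -0.124 and from -0.489 to -0.187. With TGF-β Rgs19 differed by -0.02 in EpH4 and -0.00 in EpRas cells (SE 0.21). Its pooled reads, 1162 against 1511 in EpH4 cells, gave a ratio of 1.01 with an interval of 0.934 to 1.09. Between the lines every EpRas library was below every EpH4 library of the same treatment, with ratios of pooled reads of 0.773 (0.710 to 0.841) without and 0.771 (0.703 to 0.845) with TGF-β, intervals that leave out the spread between libraries.

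Rgs14, which binds Ras and Rap as well as Gi α subunits, was low in all libraries. It was at 0.237 and 0.350 FPKM in untreated and 1.205 and 0.515 FPKM in treated EpH4 cells. In EpRas cells the values were 0.908 and 0.837 FPKM untreated and 0.553 and 0.711 FPKM treated, on 3 to 12 reads a library. Both treated libraries were above the untreated ones in EpH4 cells and below them in EpRas cells. With no filter the difference between these effects was -0.70 (SE 0.26, adjusted p = 0.379, limma) and did not pass, nor did either effect alone (adjusted p = 0.197 and 0.740). Between the untreated lines both EpRas libraries were above both EpH4 libraries, 2.97-fold by the mean FPKM and 2.85-fold by pooled reads (19 against 9, interval 1.23 to 7.16). The log2 difference of 0.53 (SE 0.19, adjusted p = 0.119, limma) did not pass, and it passed without either treated EpH4 library (adjusted p = 0.0405). Rgs17, an RZ protein, had between 0 and 8 reads a library, with a pooled ratio of EpRas to EpH4 cells of 4.51 without TGF-β (10 against 3 reads, interval 1.16 to 25.5). Its adjusted p values with no filter were between 0.449 and 1, so no difference of Rgs17 passed.

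Rgs4 and Rgs5, neighbours on chromosome 1 that lie 47951 bases apart, were at 0 in nearly all libraries. Rgs4 had 1 read in 1 treated EpRas library, and Rgs5 had 1 read in 1 treated EpH4 library. For the libraries with 0 reads of Rgs4, the exact Poisson upper limit was between 0.169 and 0.376 FPKM in the untransfected table and between 0.104 and 0.181 FPKM in the siRNA table. Rgs5 is known as a marker of pericytes. Of the 4 pericyte and smooth muscle markers, Myh11 reached at most 0.0993 FPKM, Cspg4 at most 0.0574 FPKM and Des at most 0.489 FPKM in the untransfected and 1.80 FPKM in the siRNA libraries, while Mcam ran from 3.01 to 82.3 FPKM in the untransfected libraries and set the summed level of the list, 6.63 to 6.94 FPKM in untreated and 81.9 to 82.4 FPKM in treated EpH4 cells, and 3.48 to 3.68 FPKM in untreated and 16.5 to 16.7 FPKM in treated EpRas cells. The 4 fibroblast markers summed to between 1.58 and 1.97 FPKM in untreated and 9.28 and 10.5 FPKM in treated EpH4 cells, and to between 9.64 and 11.3 FPKM in untreated and 6.71 and 7.90 FPKM in treated EpRas cells. Pdgfrb (0.915 to 8.24 FPKM) and Pdgfra (0.668 to 3.16 FPKM) made up nearly all of this sum, with Dcn at most 0.175 FPKM and Lum at 0. The fibroblast sum and Mcam were thus higher with TGF-β in EpH4 cells, where Rgs3, Rgs12 and Rgs16 were higher and Rgs2 lower, and Mcam was also higher with TGF-β in EpRas cells. In the siRNA libraries the untreated levels of Pdgfrb were 1.09, 5.25 and 9.35 FPKM for siNC, pair 1 and pair 2, and the treated levels 2.09, 10.1 and 12.02 FPKM. Mcam was at 1.75, 8.62 and 1.57 FPKM without and 6.96, 61.7 and 27.6 FPKM with TGF-β, and the endothelial marker Cdh5 at 0.320, 0.0262 and 0 FPKM without and 1.80, 0.0774 and 0.173 FPKM with it. For Pdgfra the untreated levels were 3.21, 1.76 and 3.67 FPKM and the treated levels 6.79, 2.33 and 3.86 FPKM. The leukocyte marker Cd68 was at 5.17, 2.83 and 3.94 FPKM without and 6.52, 2.18 and 3.37 FPKM with TGF-β. In the comparisons in which Rgs16 and Rgs2 were lower, Pdgfrb was therefore higher and Cdh5 and Cd68 lower with both pairs. Pdgfra was lower with both pairs in treated cells and with pair 1 in untreated cells. Summed endothelial markers were at most 0.481 FPKM in the untransfected libraries, and leukocyte markers, led by Cd68 with Ptprc at 0 there, at most 7.13 FPKM. The part of such cells in these results was not tested, and in bulk RNA fewer cells with a transcript and less of it per cell cannot be told apart.

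Among the other 10 numbered Rgs genes, 6 were listed at 0 in all 14 libraries and 2, Rgs11 and Rgs20, reached 1 FPKM. Rgs11, a protein of the R7 group that pairs with Gβ5, ran from 0.487 to 0.967 FPKM over the 4 EpH4 libraries but from 3.85 to 6.51 FPKM over those of EpRas cells. With no filter it was higher in EpRas cells by 1.64 without (SE 0.22, adjusted p = 0.00701, limma) and 1.69 with TGF-β (SE 0.22, adjusted p = 0.00498). Rgs20, an RZ protein, ran from 0.465 to 1.201 FPKM in EpH4 and from 2.86 to 4.62 FPKM in EpRas cells, and was higher in the latter by 1.38 without (SE 0.25, adjusted p = 0.0186) and 1.17 with TGF-β (SE 0.25, adjusted p = 0.0253). For both genes every EpRas library lay above every EpH4 library. Rgs9, also of the R7 group, was between 0.165 and 0.516 FPKM in EpH4 and at most 0.112 FPKM in EpRas cells, and was lower in the latter with TGF-β by a log2 difference of -0.51 (SE 0.13, adjusted p = 0.0451). The fixed list held Rgs21 and the partner genes Rgs7bp and Rgs9bp as well, 13 symbols of which 12 were listed and 5 tested. Of these 5, 2 were higher and 0 lower in EpRas cells without TGF-β, beside 14.7% of all genes called, and 2 higher and 1 lower with it, beside 18.1%.

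Genes of G-protein subunits, effectors, receptors and partners were taken from fixed lists, of which the α subunits are those on which RGS proteins act. The counts below are from the test with no filter, to be read beside the shares over all genes given above. These were 14.7% between the untreated and 18.1% between the treated lines, 7.27% for TGF-β in EpH4 and 2.60% for TGF-β in EpRas cells. Of 15 G-protein α subunit genes 14 were tested. Between the untreated lines 3 of them were lower and 0 were higher in EpRas cells, and with TGF-β 4 were lower and 0 higher. Gna12 was at 39.1 and 37.5 FPKM in untreated EpH4 and 24.97 and 27.3 FPKM in untreated EpRas cells (log2 difference -0.53, SE 0.11, adjusted p = 0.0253, limma). Gnao1 and Gnaz, both of the Gi class, were low, between 1.65 and 4.75 FPKM in EpH4 cells and at most 0.538 FPKM in EpRas cells. Their log2 differences between the untreated lines were -1.475 and -1.479 (adjusted p = 0.00341 and 0.0139). Gnas, the α subunit of the G protein that stimulates adenylyl cyclase, rose with TGF-β in EpH4 cells by 0.596 (SE 0.09, adjusted p = 0.0192), as did Gna12 by 0.58 (SE 0.11, adjusted p = 0.0306). These 2 of 14 were the α subunits called there. Gna12 was above 5 FPKM in every untransfected library, and with that filter Gnas was called there and Gna12 was not. With TGF-β in EpRas cells limma with no filter called 0 of 14, with 0 at an unadjusted p under 0.05.

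Of 17 β and γ subunit genes 13 were tested. In EpRas cells 2 were higher and 2 lower without TGF-β, and 3 higher and 1 lower with it. With TGF-β 2 rose and 1 fell in EpH4 cells, and 2 rose in EpRas cells. Gng11, a γ subunit, was at 5.36 and 3.16 FPKM in untreated and 43.1 and 45.7 FPKM in treated EpH4 cells. In EpRas cells the values were 15.8 and 20.6 FPKM untreated and 178.9 and 212.5 FPKM treated. It rose with TGF-β in both lines, by 3.14 in EpH4 (SE 0.23, adjusted p = 0.00172, limma) and 3.36 in EpRas cells (SE 0.23, adjusted p = 0.00359). It was also higher in EpRas than in EpH4 cells, by 1.89 without (adjusted p = 0.00573) and 2.11 with TGF-β (adjusted p = 0.00308). The β subunit gene Gnb4 was higher in EpRas cells too, by 1.38 without and 0.90 with TGF-β (adjusted p = 0.00798 and 0.0255), and Gng12 was lower, by -1.11 and -1.117 (adjusted p = 0.0395 and 0.0332). Gng2 rose with TGF-β in EpRas cells by 1.195 (SE 0.19, adjusted p = 0.0380). Gng13 was at 0.801 and 1.18 FPKM in untreated EpH4 cells and listed at 0 in the other 6 libraries, a fall with TGF-β in EpH4 cells (adjusted p = 0.00688).

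Of 13 effector genes (phospholipases C-β and adenylyl cyclases) 11 were tested. In EpRas cells 3 were higher and 1 lower without TGF-β, and 3 higher and 2 lower with it. Adenylyl cyclase gene Adcy7 rose with TGF-β in EpH4 cells by 1.22 (SE 0.11, adjusted p = 0.00369, limma) and in EpRas cells by 0.73 (SE 0.11, adjusted p = 0.0374), and Adcy3 fell in EpH4 cells by 0.60 (SE 0.11, adjusted p = 0.0316). Adcy3, Plcb4 and Plcb3 were higher in EpRas cells, by 1.68, 1.26 and 0.90 without TGF-β (adjusted p = 0.000724, 0.00459 and 0.00886). Adcy1 was between 0.592 and 0.876 FPKM in EpH4 and at most 0.0423 FPKM in EpRas cells, and was lower in the latter with TGF-β by a log2 difference of -0.68 (adjusted p = 0.00425). Of 31 receptor symbols 30 were listed and 23 tested, with 3 higher and 1 lower in EpRas cells both without and with TGF-β. The lysophosphatidic acid receptor gene Lpar1, the thrombin receptor gene F2r and the chemokine receptor gene Cxcr7 were higher in EpRas cells without TGF-β, by 2.33, 1.56 and 1.52 (adjusted p = 0.00382, 0.0264 and 0.00827). With TGF-β in EpH4 cells 2 receptors fell, the nucleotide receptor gene P2ry2 by 1.47 (adjusted p = 0.0101) and the protease-activated receptor gene F2rl1 by 0.97 (adjusted p = 0.0335). With TGF-β in EpRas cells limma called 0 of 23. At an unadjusted p under 0.05, a looser threshold than that of the shares given, there were 3 receptors, beside 2272 of 15244 genes. Of 8 GoLoco and Ras partners 8 were tested, and Rap1gap, which inactivates Rap1, was higher in untreated EpRas cells by 1.15 (SE 0.14, adjusted p = 0.00566) and fell with TGF-β in EpRas cells by 1.14 on the log2 scale (SE 0.14, adjusted p = 0.0183). Rasa1, which inactivates Ras, was higher in treated EpRas than in treated EpH4 cells by 0.83 (SE 0.19, adjusted p = 0.0360). The median log2 difference between the untreated lines was -0.16 for the α subunits, -0.05 for the β and γ subunits, 0 for the effectors, 0.06 for the receptors and 0.23 for the partners, against 0 over all genes tested.

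In the siRNA libraries each condition has 1 library, so no difference has a replicate check and none has a p. A gene was counted where both pairs differed from siNC at least 2-fold the same way. Without TGF-β 1 of 4 members, Rgs16, was lower by this rule beside 3.05% of all 9094 genes, and 1, Rgs10, was higher beside 2.23%. With TGF-β 1 of 4, again Rgs16, was lower beside 2.98%, and 0 were higher beside 1.87%. The count for Rgs16 is the rule by which it was chosen. Rgs2, which is under 5 FPKM in this table too, was at least 2-fold lower with both pairs in both conditions. Rgs14, also under 5 FPKM and on few reads, was at least 2-fold higher with both pairs in both conditions. The shares above cover genes that reached 5 FPKM, so Rgs2 and Rgs14 have no share beside them.

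**Figure D4:**
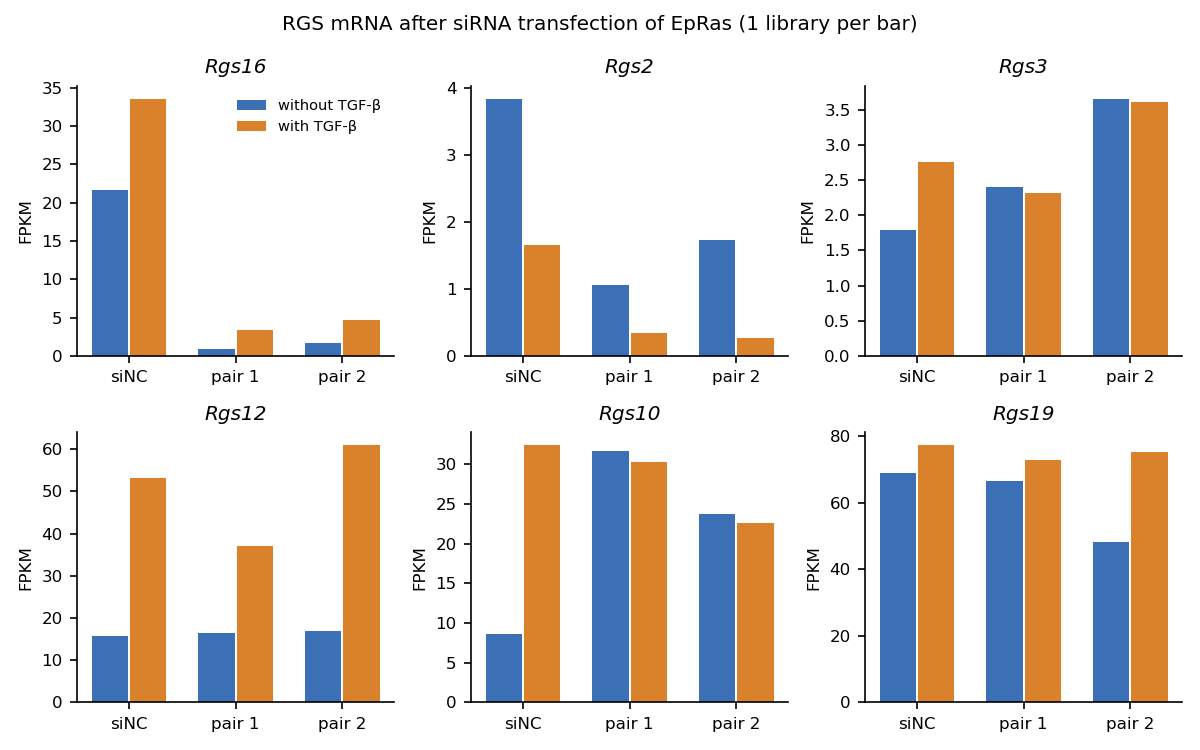
FPKM of 6 RGS genes in siRNA-transfected EpRas cells (siNC, pair 1 and pair 2, the pairs targeting Etv4 and Etv5), without (blue) and with TGF-β (orange); each bar is 1 library and each axis starts at 0. Rgs16 and Rgs2 are lower with both pairs than with siNC, Rgs12 is higher with TGF-β in each transfection, and Rgs10 is low in a single library (8.59 FPKM, siNC without TGF-β).

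Without TGF-β, Rgs16 was at 21.7, 0.883 and 1.74 FPKM for siNC, pair 1 and pair 2, on 344, 19 and 35 reads. In treated cells the levels were 33.6, 3.43 and 4.69 FPKM, on 926, 75 and 92 reads. The 4 libraries with Etv4 and Etv5 siRNAs were all below both siNC libraries. The levels left were 4.07% and 7.999% of siNC without and 10.2% and 13.98% with TGF-β. TGF-β gave a ratio of 1.55 with siNC (interval 1.37 to 1.76), 3.89 with pair 1 (2.33 to 6.81) and 2.70 with pair 2 (1.81 to 4.11). The siNC library without TGF-β, at 21.7 FPKM, was above both untransfected untreated EpRas libraries (4.58 and 4.93 FPKM), in a table normalized separately. Both untreated pairs lay below those 2 libraries. With TGF-β siNC, at 33.6 FPKM, was below both untransfected treated EpRas libraries (47.0 and 40.7 FPKM). The ratio of 1.55 with siNC thus stands beside 9.21 in untransfected EpRas cells, and the percentages without TGF-β rest on that siNC library. The cause was not tested.

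Rgs2 was at 3.84, 1.06 and 1.73 FPKM with siNC, pair 1 and pair 2 without TGF-β, on 80, 30 and 46 reads. Treated cells gave 1.65, 0.348 and 0.271 FPKM, on 60, 10 and 7 reads. The siNC library was the highest in both conditions. It was also above the untransfected EpRas libraries, at 1.29 and 1.55 FPKM without and 0.424 and 0.364 FPKM with TGF-β in a table normalized separately, and the pairs lay nearer to those levels. Relative to siNC the level was 27.6% (interval 17.5 to 42.5%) and 45.2% (30.7 to 65.8%) without TGF-β, and 21.0% (9.60 to 41.4%) and 16.4% (6.33 to 36.0%) with it. Within each transfection Rgs2 was also lower with TGF-β, 2.32-fold with siNC (interval 1.64 to 3.30), 3.05-fold with pair 1 (1.45 to 6.98) and 6.39-fold with pair 2 (2.86 to 16.8). With the untransfected lines Rgs2 was lower with TGF-β in 5 of 5 settings, where Rgs16 was higher in 5 of 5. Both genes were lower in 4 of 4 comparisons of a pair with siNC. By direction alone Rgs19 was lower in 4 of 4 as well, and Rgs14 was higher in 4 of 4. The comparisons without and with TGF-β each share 1 siNC library between the pairs.

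**Figure D5:**
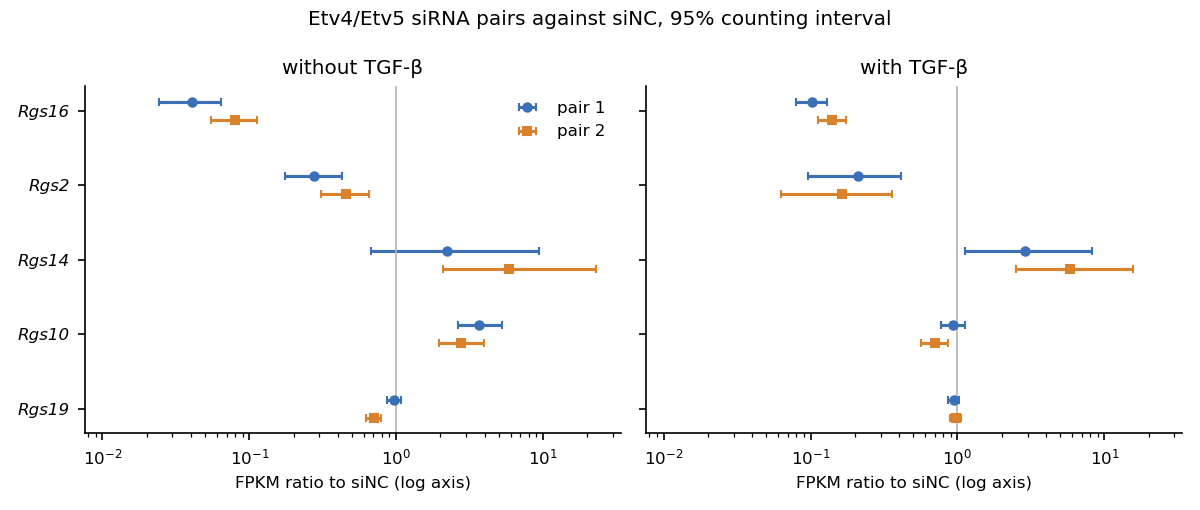
Ratio of FPKM with each siRNA pair to FPKM with siNC, on a log axis, for the 5 members with more than 3 reads in 1 library of each comparison, apart from Rgs17; bars are 95% exact binomial intervals from the reads, which cover counting error only. Rgs16 and Rgs2 lie below 1 with both pairs in both conditions, and Rgs10 lies above 1 only without TGF-β.

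Rgs12 was higher with TGF-β in all 3 transfections. Untreated libraries gave 15.6, 16.4 and 17.0 FPKM for siNC, pair 1 and pair 2, and treated libraries 53.0, 37.0 and 60.9 FPKM. Every treated library was above every untreated one, by ratios of 3.39, 2.26 and 3.58. Relative to siNC, the pairs gave ratios of 1.05 and 1.09 without and 0.698 and 1.15 with TGF-β. Rgs12 was higher with TGF-β in 5 of 5 settings.

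Rgs10 stood out through 1 library. It was at 8.59 FPKM with siNC without TGF-β, on 43 reads, and between 22.6 and 32.4 FPKM in the other 5 libraries, on 140 to 282 reads. The ratios of the pairs to siNC were therefore 3.68 (interval 2.64 to 5.23) and 2.76 (1.96 to 3.97) without TGF-β but 0.935 (0.778 to 1.12) and 0.699 (0.566 to 0.859) with it. The lowest of the 8 untransfected libraries was at 20.5 FPKM. That siNC library had the lowest relative depth of its table, 1 against up to 1.74, and its part in the value was not tested.

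Rgs14 was higher with both pairs than with siNC, on few reads. It was at 0.250, 0.552 and 1.47 FPKM with siNC, pair 1 and pair 2 without TGF-β (4, 12 and 30 reads), and treated libraries gave 0.251, 0.725 and 1.47 FPKM (7, 16 and 29 reads). The ratio to siNC was 2.21 (interval 0.669 to 9.40) and 5.90 (2.08 to 23.0) without and 2.88 (1.12 to 8.29) and 5.83 (2.50 to 15.8) with TGF-β. In untransfected EpRas cells, in a separate table, it was between 0.553 and 0.908 FPKM, so that both siNC libraries lay below that range and pair 1 within or just under it. Pair 2 had the higher level in both conditions, and the interval of pair 1 without TGF-β includes 1.

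Rgs3 was at 1.79, 2.40 and 3.65 FPKM without and 2.76, 2.32 and 3.61 FPKM with TGF-β, and its ratios to siNC lay between 0.841 and 2.04. Rgs19 ran from 48.3 to 77.3 FPKM, with the lowest level in pair 2 without TGF-β, at 70.2% of siNC (interval 62.6 to 78.7%). Its other ratios to siNC lay between 0.942 and 0.974. Rgs17 had 3 to 10 reads a library, Rgs5 had 1 and 2 reads in 2 untreated libraries and 0 in the other 4, and Rgs4 had 0 in all 6.

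The genes whose pattern was most like that of Rgs16, by Pearson's r on log2(FPKM + 1) over the 14 libraries with each table centred on its own mean, among 8680 genes, were Zc3h7a (r = 0.92), Vezt (0.91), Cog3 (0.91), Pgm1 (0.88) and 4632415K11Rik (0.88). Their levels varied far less than that of Rgs16, Zc3h7a between 9.43 and 14.9 FPKM and Vezt between 5.16 and 8.08 FPKM in the untransfected libraries. For Rgs12 they were Sema4c (0.98), Junb (0.98), Clu (0.98), Rhob (0.97) and Sfn (0.97), and Clu ran from 54.6 to 1864 FPKM. Libraries share lines, treatment and controls, so these values are a description. Among the members, r was 0.49 between Rgs16 and Rgs12 and -0.18 between Rgs16 and Rgs10.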

How the data were processed

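RNA from 8 untransfected and 6 siRNA-transfected libraries was examined. The authors isolated polyA RNA, sequenced it directionally on the Ion Proton and, per the submitters' processing notes, used TopHat2 2.0.11, Bowtie2 2.2.2.2 and Cufflinks 2.2.0 with Cuffdiff on mm10. The 2 tables deposited by the authors hold FPKM per gene and library, with Cuffdiff's interval ends, from separate runs. Scaling by Cuffdiff is already in these values, and a rise of a few abundant genes lowers all others.

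Groups followed the labels. Untransfected groups were compared with limma 3.58.1 (R 4.3.3) on log2(FPKM + 1) over all 8 libraries, for genes that reached 5 FPKM (9100 genes), with Benjamini-Hochberg adjustment and a threshold of 0.05. Members and listed genes were counted with no filter (15244 genes), since some reached 5 FPKM only in the group where they were high. Adding 1 FPKM understates changes of low genes. The analysis was tested on simulated data. The siRNA libraries have 1 library per condition and were compared by ratios. Whole reads of 8 members were recovered from the steps of FPKM (within 0.02 of a whole number), and intervals are 95% exact intervals. Alternatives were 0.1 and 5 FPKM added, no filter, a mean of at least 10 FPKM, upper-quartile scaling, a trended prior, only the groups compared, a replicate block, leaving out each library, each siRNA pair alone and a fold of 1.5.

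The members, lists and tests were chosen with earlier results of these data known. All 10 members are named, and of other genes those of the fixed lists, from the at most 3 largest differences called for a list in a comparison. The RefSeq promoter table held 9 members, and a protein comparison was not made. Hras was not analysed here under that symbol. Calculations used Python 3.11.15, numpy 2.4.6, pandas 2.3.3 and scipy 1.17.1. No per-sample column was left unused (0).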

Additional observations from a re-analysis of the deposited data

Results flagged for a closer look

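Opposite directions in 2 settings singled out these values. Rgs16 was lower in EpRas than in EpH4 cells without TGF-β in all libraries and higher in all libraries with it, a change of 2.06 on the log2 scale that follows from the values Rgs16 was chosen on and was not tested.

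Rgs2 was lower in both EpRas libraries without TGF-β and higher in both with it, a change of 1.05 on the log2 scale. With no filter on low values, limma gave this change an adjusted p of 0.152, on 1 to 6 reads in each treated library.

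Rgs14 was higher with TGF-β in both EpH4 libraries and lower in both EpRas libraries, a difference of -0.70. With no filter, limma gave an adjusted p of 0.379, on 3 to 12 reads a library.

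In the siRNA table Rgs10 was higher with TGF-β in siNC (8.59 and 32.4 FPKM) and slightly lower in both pairs, a difference of 1.86 on the log2 scale. The same values make the effect of the siRNAs with TGF-β minus that without it -1.86. Rgs3 was higher with TGF-β in siNC (1.79 and 2.76 FPKM) and slightly lower in both pairs, a difference of 0.45. With 1 library per condition these differences were not tested, and those of Rgs10 rest on the siNC library without TGF-β.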

How the results depend on the processing

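Rgs12 was called with TGF-β in EpH4 cells under each single alternative run. Rgs3 is left out of the counts that follow, because it passed the 5 FPKM filter only where it was high, and Rgs16 has no test. Of the other members that reached 5 FPKM, 0 were called between the untreated lines, against 1 (Rgs2) with no filter on low values, and 0 when a library was left out. Between the treated lines it was 0, and 0 to 1 (Rgs12) when a library was left out. With TGF-β in EpH4 cells it was 1 (Rgs12), against 2 with no filter, which adds Rgs2, and 1 when a library was left out. It stayed at 0 with TGF-β in EpRas cells and for the difference between the lines. No filter together with a library left out, or with only the groups compared, was added after seeing the data, and calls of the members that it changed (Rgs2, Rgs3, Rgs12 and Rgs14) are given beside their values.

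Over all genes, a mean of at least 10 FPKM gave 880, 1092, 559, 225 and 24 calls (between the lines without and with TGF-β, TGF-β in EpH4, TGF-β in EpRas and their difference), with fewer genes tested, against 1598, 1935, 855, 348 and 73. Only the groups compared gave 45 for TGF-β in EpRas cells. For the difference, no filter gave 117 and the trended prior 45. Leaving out 1 library gave 733 to 2064, 822 to 2384, 239 to 1085, 127 to 413 and 10 to 127 calls. Except where named, the cause was not tested.

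Replicate numbers did not pair the samples (correlations of same-numbered deviations between -0.35 and 0.08). With the replicate block, 547, 222 and 31 genes were called for TGF-β in EpH4, TGF-β in EpRas and their difference, and the members called, counted as above in the 5 comparisons, stayed at 0, 0, 1, 0 and 0.

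No called difference changed its direction. Uncalled differences near 0 changed sign when a library was left out. Those of Rgs10 then ran from -0.549 to 0.316 (untreated lines), -0.774 to 0.0537 (treated lines), -0.0639 to 0.801 (TGF-β in EpH4), -0.289 to 0.539 (in EpRas) and -0.676 to 0.189 (their difference). Those of Rgs19 ran from -0.262 to 0.212 (TGF-β in EpH4), -0.153 to 0.150 (in EpRas) and -0.214 to 0.260 (difference), with 0.00973 in EpRas under upper-quartile scaling. Rgs3 ran from -0.147 to 0.0489 (untreated lines) and -0.0908 to 0.307 (TGF-β in EpRas), and Rgs12 from -0.127 to 0.563 (untreated lines). With no filter, Rgs14 ran from -0.436 to 0.105 (treated lines), and Rgs17 changed sign with TGF-β in both lines. A library left out leaves 1 in its group, assumed to vary like the others. No replicates limit the siRNA values.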
